A study of Mus musculus with 6 samples.

Results

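Slpi and other genes for antimicrobial proteins were examined in adipose tissue RNA from mice with and without injury of the colon. The 10 genes (Slpi, Lcn2, Ltf, Camp, Lyz1, Lyz2, Saa3, Reg3g, Reg3b and Lbp) were taken by symbol from a table of 22134 genes, and all 10 were found. The study sequenced 3 libraries of creeping fat, the fat that wraps an injured bowel, taken after repeated cautery of the colon, and 3 libraries of mesenteric adipose tissue from uninjured controls. Both groups were wild type ("WT"), and all libraries came from total RNA of adipose tissue. Age, sex, strain and the time after injury were not stated. Whether each library came from its own animal is not stated in the labels. The p-values therefore measure the spread between these libraries, part of which may be technical. The comparison asks how transcript levels in creeping fat differ from those in uninjured mesenteric fat.

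Antimicrobial proteins are secreted by epithelia, phagocytes and the liver, and they bind or damage microbes or withhold what microbes need. SLPI blocks serine proteases of neutrophils and mast cells and also kills bacteria, and lysozymes cut the bacterial cell wall. Lipocalin 2 (Lcn2) captures the siderophores with which bacteria collect iron, and lactoferrin (Ltf) binds iron itself. Cathelicidin (Camp) gives rise to a membrane-disrupting peptide, the REG3 lectins act on bacteria at the gut surface and are also made by the stressed pancreas, LBP carries lipopolysaccharide to CD14, and serum amyloid A3 (Saa3) is an acute-phase protein made outside the liver, including in fat.

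Levels are in FPKM, in which fragments are scaled to gene length and library size. The depth, recovered from the steps of the FPKM values, was 32837045 to 36158204 reads in creeping fat and 31186018 to 43415696 reads in controls, and so overlapped between the groups. The summed level of 10 adipocyte markers was 676 to 1504 FPKM in creeping fat and 3557 to 9494 FPKM in controls, and all 10 were lower in creeping fat. Transcripts of 12 seminal vesicle genes summed to 16798 to 32223 FPKM in creeping fat and 0.171 to 55.9 FPKM in controls. Those of 21 pancreatic acinar genes summed to 28.1 to 5654 FPKM in creeping fat and 17064 to 43692 FPKM in controls. Control 2 stood apart from the other controls on the second principal component, and creeping fat 2 from the other creeping fat libraries on the third. In bulk tissue, fewer cells of a type and less RNA per cell cannot be told apart.

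Slpi, Lyz2 and Lbp rose in creeping fat, and the other genes tested did not pass. Among these, Lcn2, Reg3b and Reg3g varied widely between libraries of the same tissue, as did Saa3 and Camp among the controls. Of the 10 genes, 9 had at least 1 FPKM in at least 3 libraries and were tested, and Ltf was not. In limma's test 3 of the 9 were higher in creeping fat (Benjamini-Hochberg adjusted p under 0.05), against a background of 9.35% of 12812 genes tested. None was lower (0 of 9, also at an unadjusted p under 0.05 and by voom on recovered reads), against a background of 6.81%, and 16.2% of all genes tested were called in either direction. Counts of called genes in the lists below stand against the same shares, and no list was tested as a set. The 3 libraries of creeping fat lay above all 3 controls for Slpi, Lyz2, Lbp and Saa3, 4 of the 9, against a background of 20.2%. None of the 9 had all 3 creeping fat libraries below the controls, against 16.9%, and 37% of all genes tested had no overlap in either direction. The median difference was 0.31 over the 9 genes and 0.02 over all genes tested, as differences of mean log2(FPKM + 1), a scale that understates changes of low genes. Summed FPKM of the 10 genes made up 1.52%, 1.14% and 1.40% of all FPKM in creeping fat 1, 2 and 3, against 0.247%, 0.268% and 0.375% in control 1, 2 and 3. The sums did not overlap, and Lyz2 alone gave 51.8% to 77.3% of them in creeping fat and 52.1% to 83.7% in controls.

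**Figure D1:**
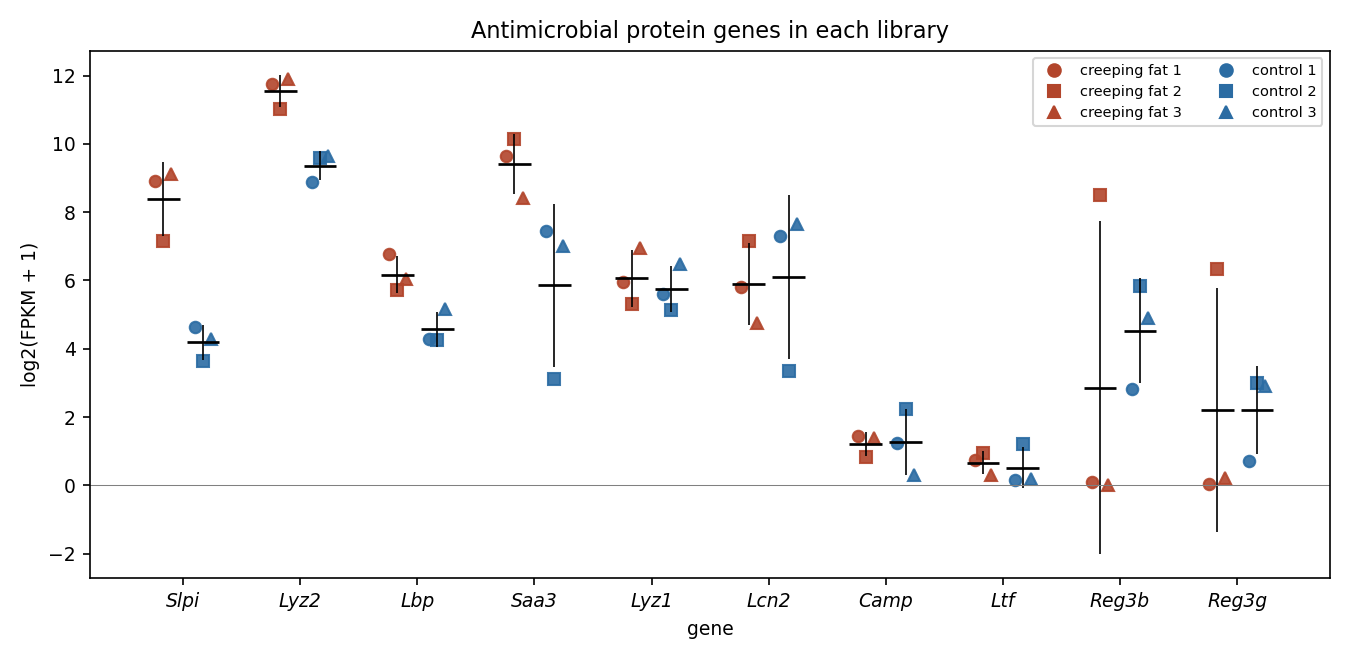
Level of each gene as log2(FPKM + 1) in every library, with creeping fat left of control. Symbols are libraries, black lines are group means and thin bars are SDs of the log2 values (n = 3). Slpi, Lyz2, Lbp and Saa3 do not overlap between the groups, and Reg3b and Reg3g are high in creeping fat 2 alone among the creeping fat libraries.

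**Figure D2:**
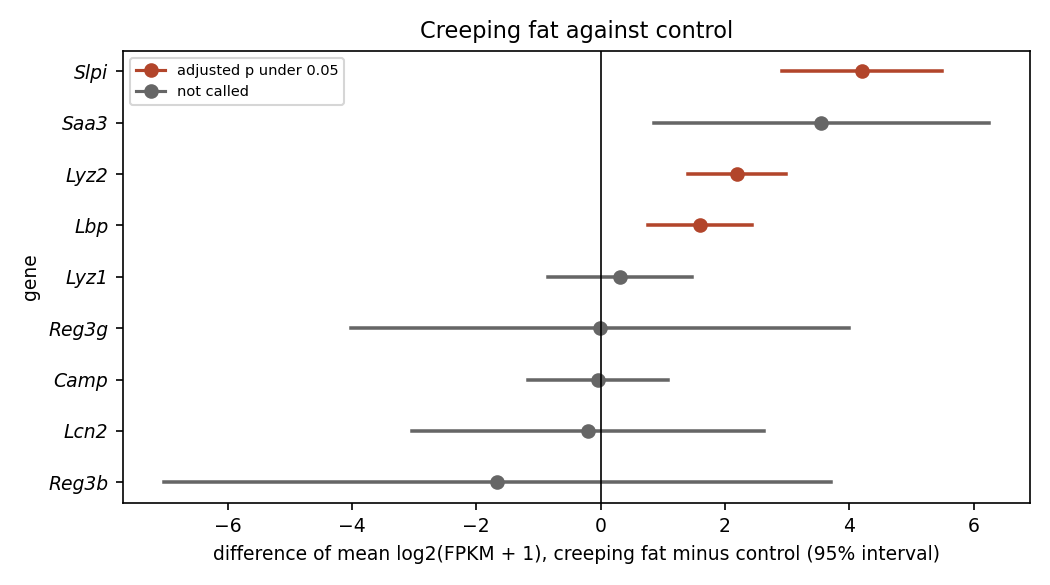
Creeping fat minus control on the log2(FPKM + 1) scale, with limma's 95% interval (lines), for the 9 genes tested. The intervals of Slpi (2.92 to 5.49), Lyz2 (1.41 to 2.99), Lbp (0.77 to 2.43) and Saa3 (0.86 to 6.24) lie above 0, and Saa3 is not called after adjustment.

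By mean FPKM, the order in creeping fat was Lyz2, Saa3, Slpi, Reg3b, Lbp, Lcn2, Lyz1, Reg3g, Camp and Ltf. In controls it was Lyz2, Lcn2, Saa3, Lyz1, Reg3b, Lbp, Slpi, Reg3g, Camp and Ltf. Slpi thus held place 3 in creeping fat and place 7 in controls. Lyz2 led in all 6 libraries, and its lowest value in each group was above the highest value of every other gene of the set in that group. Below Lyz2 most neighbours in these orders overlapped in their libraries: in creeping fat Lbp, Lcn2 and Lyz1 had means of 74.6 ± 29.3, 74.1 ± 60.1 and 73.7 ± 43.6 FPKM (SD, n = 3 each).

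Slpi encodes a secreted inhibitor built of whey acidic protein (WAP) domains. It had 477, 142 and 559 FPKM in creeping fat 1 to 3, against 24.1, 11.5 and 18.4 FPKM in control 1 to 3. All 3 creeping fat libraries were above the highest control, and creeping fat 2 was the lowest of them. The means were 393 ± 221 FPKM in creeping fat and 18.0 ± 6.31 FPKM in controls (SD, n = 3 each), a ratio of 21.8, and Slpi rose by 4.20 ± 0.54 on the log2 scale (SE; limma, adjusted p = 0.0046). Behind these levels stood 19832, 5690 and 21127 recovered reads in creeping fat and 1078, 413 and 919 in controls, so counting error was small against the spread between libraries. Slpi ranked 81, 292 and 76 among all genes of creeping fat 1 to 3 and 2072, 5276 and 2983 among those of control 1 to 3. It lies on the minus strand of chromosome 2 from 164354070 to 164356507 in GRCm38.p6, and its exons hold a microRNA gene, Mir7678, of the same strand.

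The 250 bases before the Slpi start (RefSeq, GRCm38.p6, chr2:164356508-164356757, minus strand) are shown because Slpi had the largest difference of the 9 genes. Capitals mark a match to the C/EBP motif TTGCNNAA on the opposite strand, from 241 to 234 bases before the start.
Slpi: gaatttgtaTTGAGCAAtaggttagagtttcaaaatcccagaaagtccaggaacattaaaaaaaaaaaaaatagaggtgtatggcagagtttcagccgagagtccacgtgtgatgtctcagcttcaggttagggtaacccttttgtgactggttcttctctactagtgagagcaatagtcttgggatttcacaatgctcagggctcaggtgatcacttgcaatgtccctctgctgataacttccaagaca

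Promoters were found for 9 of the 10 genes and searched on both strands for 3 motifs of factors known to act in inflammation. TTGCNNAA was in 5 of the 9 (Slpi, Lcn2, Ltf, Lyz1 and Saa3), against 9.57% of 32841 promoters of the same length. The NF-kB motif (GGG and CC with 5 bases between them) was in 3 of the 9 (Lcn2, Ltf and Reg3g), against 45.8% of all promoters, and its 3 matches in Ltf overlap each other. The STAT motif TTCNNNGAA was in Reg3b alone, against 7.02% of all promoters. Genes with the C/EBP letters include Slpi, which rose, and Lcn2 and Lyz1, which did not pass the test. Lyz2, which rose, had none of the 3 motifs in this window.

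Of the genes whose profile over the 6 libraries was closest to that of Slpi, Ptn and Clec4d were among the nearest 5 with 1, 0.5 or 0.1 added to FPKM. Likeness was the root mean square difference of log2(FPKM + 1), each gene centred on its own mean, over 6 libraries and 8966 genes with a group mean of at least 5 FPKM. The nearest 5 were Tcaf3 (0.46), Ptn (0.52), Tgm4 (0.56), Pbsn (0.61) and Clec4d (0.64). Ptn encodes the growth factor pleiotrophin, Clec4d a C-type lectin of myeloid cells, Pbsn probasin, a secretory protein of the prostate, and Tgm4 a prostate transglutaminase. Tcaf3, Tgm4 and Pbsn were near 0 FPKM in controls, so the added 1 set the size of their difference. With 0.5 added instead, the nearest 5 were Ptn, Tcaf3, Epyc, Pate9 and Clec4d, and Tgm4 and Pbsn took places 24 and 38. With 0.1 added, Tcaf3, Tgm4 and Pbsn took places 148, 219 and 809, and the nearest 5 were Acod1, Ptn, Fam180a, Epyc and Clec4d. Ptn had 74.3, 27.4 and 47.8 FPKM in creeping fat 1 to 3, against 3.82, 2.59 and 1.90 FPKM in control 1 to 3.

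Prostate transcripts were read beside Slpi because Pbsn and Tgm4 shared its dip in creeping fat 2. Smaller dips in creeping fat 2 were seen in other genes. Trem2, a macrophage gene, had 54.7, 38.9 and 59.9 FPKM in creeping fat 1 to 3, and Lyz2 was also lowest in creeping fat 2. The highest creeping fat library had 3.95 times the level of the lowest for Slpi and 1.83 times for Lyz2. Pbsn had 61.0, 5.34 and 42.6 FPKM in creeping fat 1 to 3, against 0, 0.164 and 0 FPKM in control 1 to 3. Of the 10 prostate markers 4 of the 5 tested rose. Of these, Pbsn and Tgm4 passed the filter of 1 FPKM through creeping fat alone, which favours a called difference. Spink1, which the pancreas also makes, was the most abundant of the 10. The other 9 summed to 146, 27.2 and 98.2 FPKM in creeping fat, against 1.47, 5.63 and 1.43 FPKM in controls. In creeping fat 2, the Slpi level of 142 FPKM lay above the 24.1 FPKM of the highest control, beside 5.34 FPKM of Pbsn. The part of gland cells in the Slpi level was not tested.

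Slpi also lies among seminal vesicle genes on chromosome 2. Of 8 protein-coding genes of the table within 100 kilobases of it, 6 were higher in creeping fat by limma and none was lower, a window chosen after values had been seen. They were Svs5, Svs6, Svs3a, Svs4 and Svs3b, which encode proteins of the seminal vesicle secretion, and Sdc4, which encodes a heparan sulfate proteoglycan of many cell types. Svs5, 19676 bases away, had 6207, 12003 and 12624 FPKM in creeping fat 1 to 3, against 0.171, 20.5 and 2.76 FPKM in control 1 to 3. It was lowest in creeping fat 1 and about equal in creeping fat 2 and 3, and so did not share the dip of Slpi in creeping fat 2. Sdc4 had 103, 89.7 and 91.2 FPKM in creeping fat and 57.4, 45.1 and 59.7 FPKM in controls. Matn4 and Rbpjl, the remaining neighbours, did not pass the test.

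**Figure D3:**
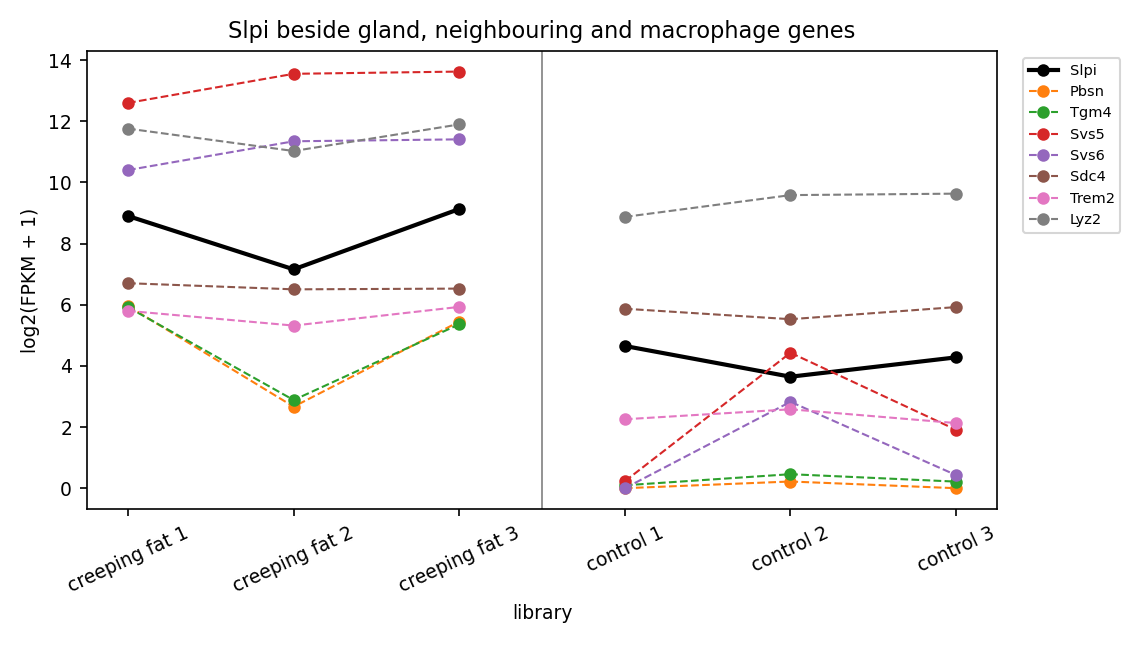
Level as log2(FPKM + 1) of Slpi (solid line), of 2 prostate genes (Pbsn, Tgm4), of 3 genes near Slpi (Svs5, Svs6, Sdc4), of the macrophage gene Trem2 and of Lyz2 in each library; lines join libraries of 1 group only to guide the eye. Among the creeping fat libraries, Slpi, Pbsn, Tgm4, Trem2 and Lyz2 are lowest in creeping fat 2, to unlike degrees, whereas Svs5 and Svs6 are lowest in creeping fat 1. Sdc4 is about equal in creeping fat 2 and 3 (89.7 and 91.2 FPKM).

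Markers of mesothelium and gut epithelium, cell types that a piece of mesenteric fat could also hold, were read in the same libraries. Mesothelial markers (10 genes) summed to 120, 189 and 89.8 FPKM in creeping fat 1 to 3 and to 112, 45.9 and 103 FPKM in control 1 to 3. Wt1 and Krt18, 2 of the 10, rose, and the other 8 were not called. Of these, Msln (-0.68), Upk3b (-1.62), Lrrn4 (-0.41) and Gpm6a (-0.32) had negative log2 differences, and Krt19, Krt8, Upk1b and Bnc1 had positive ones. Gut epithelial markers (12 genes, all above 0 in at least 1 library) summed to 225, 172 and 24.3 FPKM in creeping fat and to 11.2, 90.1 and 57.3 FPKM in controls, and none of the 9 tested passed by limma. Creeping fat 3, with the most Slpi, had the lowest sums of both lists among the creeping fat libraries. The part of mesothelium or gut epithelium in the Slpi level was not tested.

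Among relatives of Slpi with WAP domains, 2 of 5 tested genes rose and none fell (18 listed; median 1.19). Wfdc17, a WAP gene of activated macrophages, had 109, 94.1 and 90.3 FPKM in creeping fat 1 to 3, against 12.8, 17.9 and 21.9 FPKM in control 1 to 3 (2.44 ± 0.21, SE; limma, adjusted p = 0.0014). Wfdc15b rose by 2.49 ± 0.23 (adjusted p = 0.0017 by limma), at 3.80, 6.26 and 6.40 FPKM in creeping fat and 0.0436, 0.380 and 0 FPKM in controls. Of 6 tested genes for proteases that SLPI inhibits or that resemble its targets (8 listed; median -0.12), none rose and Elane, the neutrophil elastase gene, fell by 0.96 ± 0.17 (limma, adjusted p = 0.0122). Elane had 0.271, 0.124 and 0.497 FPKM in creeping fat, against 1.43, 1.46 and 1.65 FPKM in controls, and is also on the neutrophil list. It lay near the filter of 1 FPKM and passed it through the controls alone, as Wfdc15b did through creeping fat alone.

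Of the neighbouring lysozyme genes, Lyz2 rose in creeping fat and Lyz1 did not pass the test. Lyz2, the lysozyme of macrophages and other myeloid cells, had 3464, 2085 and 3811 FPKM in creeping fat 1 to 3, against 467, 767 and 793 FPKM in control 1 to 3. The groups did not overlap, and Lyz2 rose by 2.20 ± 0.33 on the log2 scale (SE; limma, adjusted p = 0.00758), a ratio of means of 4.62. Lyz1, the lysozyme of Paneth cells of the small intestine, had 60.5, 38.3 and 122 FPKM in creeping fat, against 48.1, 34.4 and 88.5 FPKM in controls. The groups overlapped, and the difference was 0.31 ± 0.49 (95% interval -0.85 to 1.48; limma, adjusted p = 0.729). Lyz2 exceeded Lyz1 by 57.2, 54.4 and 31.1 times in creeping fat 1 to 3 and by 9.72, 22.3 and 8.95 times in control 1 to 3, without overlap. Lyz1 minus Lyz2 on the log2(FPKM + 1) scale averaged -5.50 ± 0.477 in creeping fat and -3.61 ± 0.717 in controls (SD, n = 3 each), a difference of -1.88 (exact two-sided permutation p = 0.1, the smallest that 3 against 3 libraries allow).

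The copies lie 5523 bases apart on the minus strand of chromosome 10 in GRCm38.p6, Lyz2 from 117277541 to 117282272 and Lyz1 from 117287795 to 117292868. Of all stretches of 50 bases of the longest GENCODE transcript, 16.1% of those of Lyz1 and 15.4% of those of Lyz2 also occur in the other gene, and of stretches of 100 bases 2.06% and 1.97%. How shared reads were counted is not given in the sources, so the split of reads between the copies, and with it the level of Lyz1, is uncertain. The 250 bases before each start (RefSeq, GRCm38.p6; Lyz2 at chr10:117282273-117282522 and Lyz1 at chr10:117292869-117293118, minus strand) are shown because Lyz2 passed the test and its near copy did not. Capitals mark bases that differ between the copies or have no partner in the alignment: 200 of 248 aligned bases are identical (80.6%), and the bases nearest the start are the same.
Lyz2: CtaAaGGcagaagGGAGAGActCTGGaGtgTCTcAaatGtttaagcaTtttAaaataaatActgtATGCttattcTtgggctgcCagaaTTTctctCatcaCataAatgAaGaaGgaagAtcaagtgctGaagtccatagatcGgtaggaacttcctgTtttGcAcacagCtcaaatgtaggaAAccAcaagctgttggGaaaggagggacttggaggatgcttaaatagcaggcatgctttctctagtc
Lyz1: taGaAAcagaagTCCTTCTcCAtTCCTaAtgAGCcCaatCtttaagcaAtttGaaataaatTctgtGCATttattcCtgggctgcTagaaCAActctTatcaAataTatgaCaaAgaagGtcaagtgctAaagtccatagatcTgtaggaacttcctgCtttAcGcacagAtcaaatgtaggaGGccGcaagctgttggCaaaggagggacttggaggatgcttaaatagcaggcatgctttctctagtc

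Most macrophage markers moved with Lyz2. Of 12 such genes, 7 rose and none fell (median 1.50), and they summed to 1806, 1551 and 1993 FPKM in creeping fat 1 to 3, against 388, 1348 and 649 FPKM in control 1 to 3. Lyz2 was lowest in creeping fat 2, as was the marker sum. Control 2 broke the parallel, with a marker sum near that of creeping fat 2 and 767 FPKM of Lyz2. Marco held 304 FPKM of the sum in control 2, against 6.65 FPKM in creeping fat 2. Marco (log2 difference -2.62) and Cd163 (-1.03) went the other way from Lyz2 and were not called. Per FPKM of the marker sum, Lyz2 stood at 1.92, 1.34 and 1.91 in creeping fat and at 1.21, 0.569 and 1.22 in controls. The part of macrophage number in the Lyz2 difference was not tested.

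Lbp, the lipopolysaccharide-binding protein gene, had 108, 51.6 and 64.7 FPKM in creeping fat 1 to 3, against 18.4, 18.3 and 35.0 FPKM in control 1 to 3. The groups did not overlap, with control 3 nearest to creeping fat, and Lbp rose by 1.60 ± 0.35 (SE; limma, adjusted p = 0.0244). The call was lost without creeping fat 1 (1.31, adjusted p = 0.0777 by limma), without creeping fat 3 (1.67, adjusted p = 0.0742) and without control 1 (1.45, adjusted p = 0.0797). Lbp is on the plus strand of chromosome 2 from 158306493 to 158332852 in GRCm38.p6, next to Bpi, a related gene that was listed at 0 in all 6 libraries. Liver markers (8 genes), which would mark the main known source of LBP, gave no common direction, and 1 of the 8, Serpina1a, fell. Cyp2e1, the most abundant of them, had 148, 375 and 252 FPKM in creeping fat and 783, 401 and 877 FPKM in controls and did not pass the test. The other 7 summed to 34.4, 39.0 and 44.8 FPKM in creeping fat and to 18.3, 49.2 and 45.5 FPKM in controls, and so overlapped.

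Of 15 tested genes that recognise lipopolysaccharide and other microbial products, 2 rose and none fell (16 listed, median 0.48). That share lay near the 9.35% called higher among all genes tested. Cd14, the receptor to which LBP delivers lipopolysaccharide, had 62.4, 31.4 and 40.9 FPKM in creeping fat 1 to 3, against 9.09, 6.76 and 11.3 FPKM in control 1 to 3 (2.16 ± 0.29, SE; limma, adjusted p = 0.00507). Tlr2, the receptor of bacterial lipoproteins, rose by 1.98 ± 0.26 (adjusted p = 0.00498 by limma), at 25.1, 16.6 and 17.3 FPKM in creeping fat and 3.16, 6.20 and 3.55 FPKM in controls. As with Lbp, the 3 creeping fat libraries lay above all controls for both genes, and creeping fat 1 was the highest.

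Saa3 had 805, 1125 and 343 FPKM in creeping fat 1 to 3, against 173, 7.61 and 128 FPKM in control 1 to 3. The groups did not overlap, but control 2 was far below the other controls, and the difference of 3.55 ± 1.13 did not pass (SE; limma, adjusted p = 0.0804, unadjusted p = 0.0169). Without control 2 the difference was smaller and passed (2.18, adjusted p = 0.0127 by limma). The gene lies on the minus strand of chromosome 7 from 46711998 to 46719615 in GRCm38.p6, in a cluster with Saa1, Saa2 and Saa4. Saa1, an acute-phase gene of the liver, had 14.4, 6.34 and 2.19 FPKM in creeping fat and 4.85, 2.59 and 13.7 FPKM in controls, and the groups overlapped. Of 10 tested acute-phase genes beside Saa3 none rose, and Hamp2, a relative of the iron-regulating hormone gene hepcidin, fell by 1.95 ± 0.23 (15 listed, median -0.14; limma, adjusted p = 0.0037). Hamp2 had 0.127, 0.0655 and 0 FPKM in creeping fat 1 to 3, against 2.18, 4.55 and 2.90 FPKM in control 1 to 3. It passed the filter through the controls alone, and the added 1 shaped the size of its difference.

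Lcn2, on the minus strand of chromosome 2 from 32384637 to 32387739 in GRCm38.p6, varied more within the groups than between them. It had 54.9, 141 and 25.9 FPKM in creeping fat 1 to 3, against 158, 9.13 and 202 FPKM in control 1 to 3. Control 2 was the lowest of all libraries, as it was for Saa3, and control 1 and 3 were the highest. The difference was -0.20 ± 1.19 (95% interval -3.03 to 2.63; limma, adjusted p = 0.937), an interval that spans changes of several-fold either way. Without both libraries numbered 2, Lcn2 was called lower (-2.21, adjusted p = 0.00213 by limma). Within creeping fat, Lcn2 and Saa3 were both highest in creeping fat 2 and lowest in creeping fat 3. The ratio of Saa3 to Lcn2 was 14.7, 7.96 and 13.2 in creeping fat and 1.10, 0.833 and 0.634 in controls, so it did not overlap between the groups. The adipocyte marker sum, 9289 and 9494 FPKM in control 1 and 3, was 3557 FPKM in control 2. In creeping fat 1 to 3 it was 676, 1504 and 978 FPKM. Among controls the mesothelial marker sum was likewise lowest in control 2 (112, 45.9 and 103 FPKM in control 1 to 3). Among creeping fat libraries that sum was, like Lcn2, highest in creeping fat 2 and lowest in creeping fat 3 (120, 189 and 89.8 FPKM in creeping fat 1 to 3). The part of either cell type in the level of Lcn2 and Saa3 was not tested.

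Of 5 tested receptors or partners of these proteins, 3 rose and 1 fell (6 listed; median 1.20). Fpr2, a formyl peptide receptor that binds cathelicidin and serum amyloid A, rose by 2.03 ± 0.39 (11.1, 8.13 and 8.29 FPKM in creeping fat 1 to 3, 0.695, 3.66 and 0.906 FPKM in control 1 to 3; limma, adjusted p = 0.0153). Plscr1, a phospholipid scramblase reported to bind SLPI, rose by 1.45 ± 0.21 (adjusted p = 0.00703 by limma). Extl3, a glycosyltransferase that serves as a receptor of REG proteins, fell by 0.94 ± 0.17, at 24.5 to 26.4 FPKM in creeping fat and 40.5 to 60.7 FPKM in controls (adjusted p = 0.0143). Of 14 tested inducers of antimicrobial genes, 2 rose and none fell (16 listed, median 0.42), a share near the 9.35% of all genes tested. Il1b, a cytokine that induces Lcn2 and Saa3, averaged 19.4 ± 10.9 FPKM in creeping fat and 1.07 ± 0.385 FPKM in controls (SD, n = 3 each; 3.18 ± 0.38; limma, adjusted p = 0.00373). Il1r1, its receptor, rose by 1.59 ± 0.26 (adjusted p = 0.00945). Il22, the main inducer of the REG3 genes in the gut, was listed at 0 in all 6 libraries. Il17a, on the same list but under the filter, had 1.11, 1.03 and 0.0520 FPKM in creeping fat 1 to 3 and 0 FPKM in every control.

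Camp and Ltf, which neutrophils store in their granules, were low in both tissues. Both lie on chromosome 9 in GRCm38.p6, Camp from 109847377 to 109849456 on the minus strand and Ltf from 111019292 to 111042766 on the plus strand. Camp had 1.71, 0.765 and 1.63 FPKM in creeping fat 1 to 3, against 1.37, 3.69 and 0.231 FPKM in control 1 to 3, from 6 to 69 recovered reads a library. The difference was -0.04 ± 0.47 (95% interval -1.16 to 1.08; limma, adjusted p = 0.967), and its sign changed with the added constant. Ltf, under the filter, had 0.686, 0.908 and 0.222 FPKM in creeping fat, against 0.122, 1.33 and 0.126 FPKM in controls, from 13 to 114 reads. For both genes the highest value was that of control 2 and the groups overlapped.

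Neutrophil markers in the same libraries gave a mixed picture. Of 9 tested, S100a8, Mmp9 and Il1r2 rose and Elane fell (13 listed, median 1.98). Il1r2 passed the filter of 1 FPKM through creeping fat alone, and Elane through the controls alone. All 13 summed to 227, 194 and 123 FPKM in creeping fat 1 to 3, against 20.7, 64.9 and 31.6 FPKM in control 1 to 3. S100a8, a subunit of the zinc-binding antimicrobial protein calprotectin, had 54.9, 27.2 and 18.1 FPKM in creeping fat and 3.35, 11.3 and 6.17 FPKM in controls (2.10 ± 0.49; limma, adjusted p = 0.0309). Ngp, a granule protein gene transcribed in immature neutrophils together with Camp and Ltf, had 1.93, 0.345 and 1.39 FPKM in creeping fat, against 1.97, 8.51 and 2.42 FPKM in controls, and did not pass the test. Control 2 was again the highest. Of 11 tested antimicrobial genes of granules and phagocytes, S100a8 again among them, 3 rose and none fell (13 listed; median 1.01). Acod1, which makes the antibacterial metabolite itaconate in macrophages, rose most, by 2.49 ± 0.31 (9.85, 3.98 and 8.88 FPKM in creeping fat, 0.616, 0.335 and 0.392 FPKM in controls; limma, adjusted p = 0.00403).

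Reg3b and Reg3g were abundant in creeping fat 2 and nearly absent from the other creeping fat libraries. Reg3b had 0.0729, 359 and 0 FPKM in creeping fat 1 to 3, against 6.14, 56.4 and 28.7 FPKM in control 1 to 3. Reg3g had 0.0358, 79.5 and 0.158 FPKM in creeping fat, against 0.632, 7.01 and 6.53 FPKM in controls. For both genes the groups overlapped, with creeping fat 2 above and creeping fat 1 and 3 below every control. In recovered reads Reg3b had 2, 9510 and 0 in creeping fat and 181, 1335 and 945 in controls, so creeping fat 1 and 3 were under the floor of 3 reads, which stands for 0.0910 to 0.127 FPKM of this gene. The difference was -1.66 ± 2.26 for Reg3b (95% interval -7.02 to 3.70; limma, adjusted p = 0.688). It was -0.01 ± 1.68 for Reg3g (95% interval -4.01 to 3.99; limma, adjusted p = 0.998). Without creeping fat 2, Reg3b was called lower (-4.47, adjusted p = 0.0284 by limma), so that library decides the result.

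The Reg genes of the cluster on chromosome 6 had like profiles in creeping fat. Reg3a and Reg3d were listed at 0 in creeping fat 1 and 3 and had 147 and 28.5 FPKM in creeping fat 2. Reg2 had 0.159, 586 and 0.219 FPKM in creeping fat 1 to 3 and 56.4, 845 and 37.9 FPKM in control 1 to 3. Reg1, like Reg2 a product of the exocrine pancreas, had 0.646, 296 and 0.0790 FPKM in creeping fat and 582, 392 and 326 FPKM in controls. The 21 pancreatic acinar markers summed to 116, 5654 and 28.1 FPKM in creeping fat and to 36206, 43692 and 17064 FPKM in controls. Creeping fat 2 was thus the creeping fat library with the most acinar RNA, as it was for Reg3b. Per 1000 FPKM of the acinar sum, Reg3b stood at 0.630, 63.4 and 0 in creeping fat 1, 2 and 3, against 0.169, 1.29 and 1.68 in the controls, so the ratio itself was highest in creeping fat 2. The gut epithelial sum was 225 FPKM in creeping fat 1 and 172 FPKM in creeping fat 2, and creeping fat 1 had 2 reads of Reg3b. The part of pancreatic or epithelial tissue in the Reg3 levels was not tested.

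**Figure D4:**
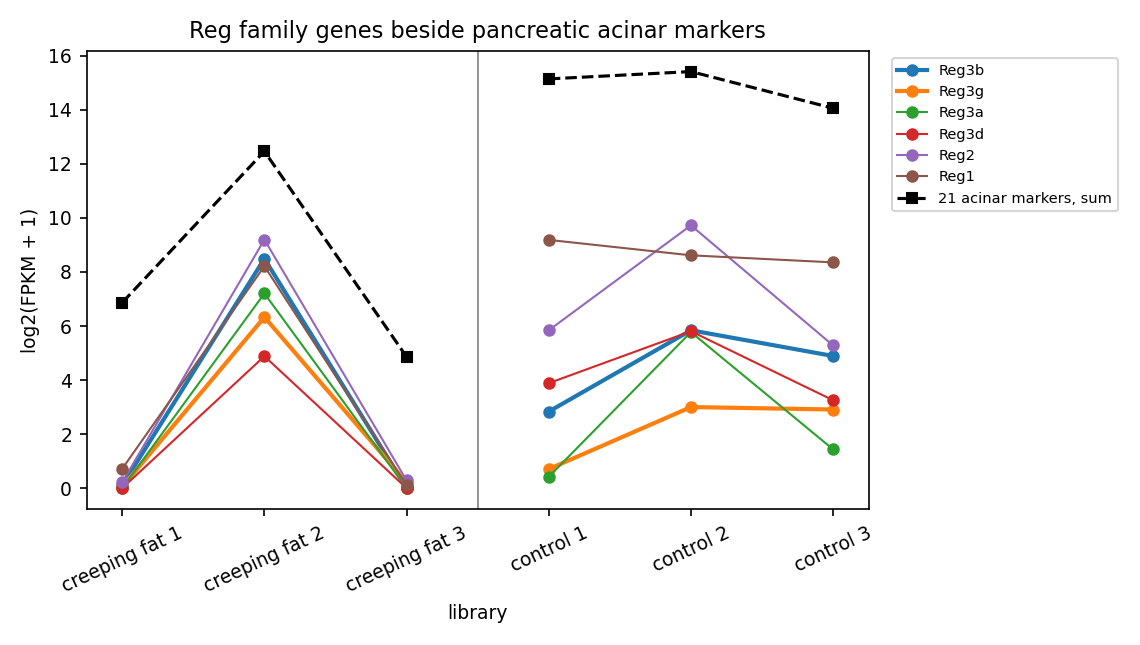
Level as log2(FPKM + 1) of 6 Reg genes and of the sum of 21 pancreatic acinar markers (dashed) in each library; lines join libraries of 1 group only to guide the eye. In creeping fat all 6 genes and the sum peak in creeping fat 2, whereas in controls 5 genes and the sum are highest in control 2 and Reg1 in control 1.

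Reg3b lies on the plus strand of chromosome 6 from 78370885 to 78373466 and Reg3g on the minus strand from 78466269 to 78468874 in GRCm38.p6, 92803 bases apart. None of their stretches of 50 bases is shared. The 250 bases before each start (RefSeq, GRCm38.p6; Reg3b at chr6:78370635-78370884, plus strand, and Reg3g at chr6:78468875-78469124, minus strand) are shown because the genes had the same order of libraries within the controls and shared the peak in creeping fat 2. Of 247 aligned bases 173 are identical (70.0%), and capitals mark a STAT match (TTCNNNGAA) in Reg3b and an NF-kB match in Reg3g.
Reg3b: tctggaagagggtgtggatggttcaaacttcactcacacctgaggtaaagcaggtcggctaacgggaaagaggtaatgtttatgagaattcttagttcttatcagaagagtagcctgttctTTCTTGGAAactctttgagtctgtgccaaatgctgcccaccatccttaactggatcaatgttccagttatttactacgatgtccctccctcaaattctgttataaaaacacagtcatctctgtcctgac
Reg3g: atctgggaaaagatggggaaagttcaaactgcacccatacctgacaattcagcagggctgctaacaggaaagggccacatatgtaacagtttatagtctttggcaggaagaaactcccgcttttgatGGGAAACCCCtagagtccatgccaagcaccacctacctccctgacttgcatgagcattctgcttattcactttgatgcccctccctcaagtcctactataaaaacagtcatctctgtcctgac

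Of 8 tested other antimicrobial genes of the gut, 1 rose and 1 fell (17 listed; median -1.42). Mmp7, which activates defensins in Paneth cells and is also on the list of prostate markers, rose by 2.52 ± 0.33 (9.60, 7.19 and 6.31 FPKM in creeping fat 1 to 3, 0.346, 1.44 and 0.0207 FPKM in control 1 to 3; limma, adjusted p = 0.0051). Zg16, a lectin gene of acinar and goblet cells that is also on the acinar list, fell by 4.08 ± 0.84 (85.6, 95.3 and 10.4 FPKM in creeping fat, 828, 1195 and 457 FPKM in controls; limma, adjusted p = 0.0199). The Paneth cell defensin genes Defa17 and Defa24 were listed at 0 in all libraries.

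Slpi and Lyz2 were called higher under all 17 alternative settings run, with a largest adjusted p of 0.0258 for Slpi and 0.0442 for Lyz2 (limma). The smallest and largest differences were 3.84 and 4.82 for Slpi and 1.95 and 2.58 for Lyz2.

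**Figure D5:**
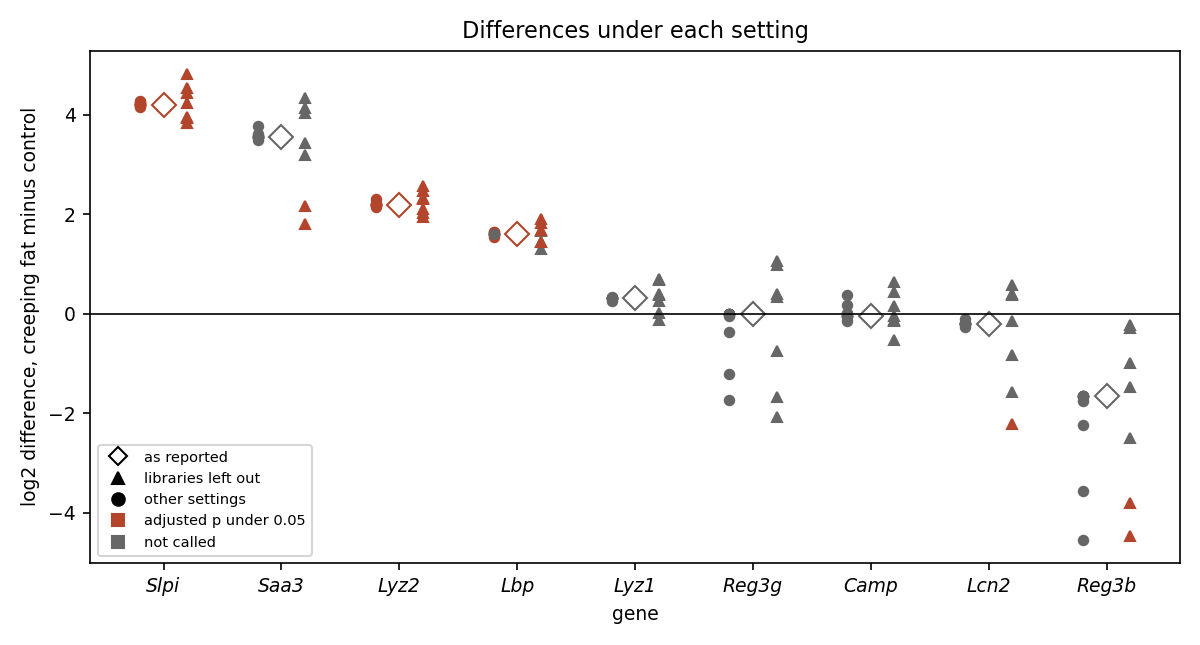
Difference of mean log2 values, creeping fat minus control, for each tested gene as reported (open diamonds), with libraries left out (triangles) and under other settings (circles); red marks an adjusted p under 0.05. Slpi and Lyz2 stay red throughout, Lbp turns grey under 4 settings (some symbols overlap), and Saa3, Lcn2 and Reg3b turn red under 2, 1 and 2 settings.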

How the data were processed

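RNA-seq libraries were made from total RNA with a stranded kit after ribosomal RNA removal, per the labels' protocols. The authors deposited FPKM values for 22134 genes in 6 libraries, with build mm10 per the submitters' processing notes. Aligner, counter, annotation and strand use were not given in the sources. Values of a gene in different libraries were whole multiples of 1 read, from which whole reads (tolerance 0.002) were recovered for 18713 of 18714 genes above 0; these served for depth, a floor of 3 reads (counting error only) and limma's voom. For genes with few reads a wrong length can also give whole reads.

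Genes reaching 1 FPKM in 3 or more libraries were tested two-sided with limma 3.58.1 (R 4.3.3, eBayes with trend) on log2(FPKM + 1). Benjamini-Hochberg adjustment ran over 12812 genes, and calls had an adjusted p under 0.05. Genes such as Hamp2, Elane, Wfdc15b, Acod1, Rtp3, Pbsn, Tgm4, Il1r2, Svs3b and 9530003J23Rik passed the filter through 1 group alone, which favours a called difference. The scripts were tested on simulated data. Named genes were all 10 genes of the set, up to 2 called genes each way of every pathway list (with no call, the 2 most abundant), the 5 genes most like Slpi, and abundant markers; single genes outside this rule were named after their values were seen. The genes and lists were chosen with earlier results of these data known. Tpsab1 and Pla2g2a were not analysed here. Alternatives covered pseudocount, filter, scaling, variance model, voom, a replicate block and left-out libraries.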

Additional observations from a re-analysis of the deposited data

How the results depend on the processing

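The number of the 10 genes called higher was 2 to 4 over 17 alternatives and that called lower 0 to 2; Reg3b was called lower without creeping fat 2 (0 to 1 called lower with 1 library left out), and Reg3b and Lcn2, 2 genes, without both libraries numbered 2. Genes called over the whole table were 1198 higher and 872 lower. They were 576 to 2896 higher and 287 to 1857 lower with 1 library left out (the highest counts without control 2), 2713 and 1731 without both libraries numbered 2, and 636 and 378 with the replicate block. Same-numbered libraries were not treated as pairs in the main test. The correlations of their deviations from the group means were -0.18, -0.18 and -0.08, and those of differently numbered libraries were -0.14 to 0.24. With 3 libraries a group these values cannot decide whether the numbers mark pairs. With the replicate block Lbp did not pass (1.60, adjusted p = 0.0546 by limma) while Slpi and Lyz2 did.

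Uncalled differences changed sign as follows. Camp was 0.18 with a pseudocount of 0.1, 0.0161 with 0.5, 0.38 by voom and 0.64 without both libraries numbered 2, and -0.52 to 0.44 with 1 library left out. Reg3g was 0.0003 with median-of-ratios scaling and -2.08 to 1.06 with 1 library left out, Lcn2 -1.58 to 0.58 and Lyz1 -0.13 to 0.70. The causes were not tested. Reg3b moved to -4.54 by voom, still uncalled, and scalings moved the median of all genes by less than 0.1. The Lyz1 minus Lyz2 difference was -2.30 to -1.65 with 1 library left out and -1.88 in pairs by number. With 3 libraries a group, intervals of Lcn2, Reg3b and Reg3g span changes of several-fold either way. Of the 5 genes most like Slpi, 3 remained among the nearest 5 with 0.5 added to FPKM and 2 with 0.1 added, an alternative chosen after seeing the data.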

Other observations

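Protein-coding genes within 100 kilobases of the other genes of the set were also read, in a window chosen after values had been seen. The gene 9530003J23Rik, 49114 bases from Lyz1 and 38860 bases from Lyz2, had 157, 342 and 329 FPKM in creeping fat 1 to 3, against 0, 0.289 and 0.0378 FPKM in control 1 to 3 (log2 difference 7.89; called higher by limma). Among creeping fat libraries it was lowest in creeping fat 1, like the Svs genes near Slpi, whereas Lyz2 was lowest in creeping fat 2. Near Lcn2, Slc25a25, a mitochondrial carrier gene, was the 1 of 8 tested neighbours that was called (lower, with 4.06, 4.25 and 4.32 FPKM in creeping fat and 6.21, 8.05 and 10.9 FPKM in controls). Near Ltf, Rtp3 was the 1 of 3 tested neighbours that was called (lower, with 0.867, 0.940 and 0.609 FPKM in creeping fat and 2.06, 1.97 and 1.93 FPKM in controls; log2 difference -0.73, limma, adjusted p = 0.0198). The neighbours of Reg3b and Reg3g, 5 each, were not called. None of the tested neighbours of Camp (3), Lbp (2) and Saa3 (4) was called by limma.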
